A study of Mus musculus with 4 samples.

Results

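The 34 genes described here encode complement and coagulation proteins that hepatocytes secrete into plasma. They were chosen by name, as 34 of the 30026 genes on a mouse expression array, with earlier results of these data known. The set holds 16 complement genes (Masp1, Masp2, Mbl1, Mbl2, C2, C4b, C3, Cfb, Hc, C6, C8a, C8b, C8g, C9, Cfi and C4bp) and 18 genes of coagulation and fibrinolysis (F11, F12, Kng1, Klkb1, F2, F7, F9, F10, Proc, Pros1, Proz, F5, F13b, Fga, Fgb, Fgg, Plg and Cpb2). Their mRNA was measured in livers of C57BL/6N mice, either wild type (WT, Pnpla7+/+) or carrying the Pnpla7-/- genotype (KO), and were taken at 3 or 6 weeks. The lysophospholipase PNPLA7 sits on the endoplasmic reticulum, and the series asks what its loss does to choline and methyl-group supply in the liver. Each of the 4 groups was 1 Cy3 array hybridised with RNA pooled in equal amounts from 5 animals, and all 4 arrays sat on 1 slide. A pool averages its animals, so the spread between mice cannot be seen, no difference between 2 arrays has a replicate error, and the position of an array on the slide cannot be told apart from its group. In whole liver, fewer cells of a type and less RNA per cell cannot be told apart either.

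Complement and coagulation are both cascades of serine proteases that circulate as inactive precursors. In complement, the lectin pathway reads microbial sugars through mannose-binding lectins, cleaves C4 and C2, and with the alternative pathway activates C3, after which C5 to C9 assemble a pore in the target membrane. In coagulation, the contact system and the vitamin K-dependent factors lead to thrombin, which turns fibrinogen into fibrin, and plasmin later dissolves the clot. The liver is the main source of most of these proteins, and many of them are acute phase reactants.

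Signals are given as the processed signal of a gene's brightest probe divided by the 75th percentile of its array, so that the percentile itself is 1, and differences are given as log2 ratios. All 34 genes were well above background on all 4 arrays, and none of their spots was saturated. Signals compare arrays for 1 gene and not one gene with another, since probes differ in response. On 287 probes printed at several spots, the spread between spots came to an SD of 0.10 for a single-spot log2 ratio at 3 weeks and of 0.12 at 6 weeks. This error leaves out the differences between pools of animals.

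Some values of the whole series bear on all of these comparisons. The Pnpla7 probe read 7.54 in WT and 6.70 in KO at 3 weeks, and 9.65 and 4.42 at 6 weeks. The sources used here do not say which part of the gene was deleted, so the probe does not check the genotype. Of 11 skeletal muscle genes, 11 at 3 weeks and 10 at 6 weeks were at least 2-fold higher on the KO array, with summed signals of 0.652 (WT) and 65.4 (KO) at the younger age and 1.35 (WT) and 39.2 (KO) at the older. Of 4 Y-linked genes, only Uty was well above background, and only on the WT 3-week array. Of 11 hepatocyte markers, 10 (all but Serpina1b) were well above background on every array, and the summed signals of the 11 ran from 1990 to 2250. The part of these differences in the results on complement and coagulation genes was not tested. Each group has 1 array, so no result can be given without one of them.

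Most of the complement and coagulation genes read close to WT on the KO array of the same age. At 3 weeks 33 of 34 (97.1%) were within 1.5-fold of WT, against 89.5% of all genes tested, and at 6 weeks 29 of 34 (85.3%), against 77.2%. The gene furthest from WT at either age was C8b, the beta chain of the pore protein C8, which was 1.67-fold higher in KO at 3 weeks and 2.13-fold higher at 6 weeks. Its chromosomal neighbour C8a and the clotting factor F11 also read higher in KO at both ages. Masp1, F7 and C2 were higher in KO at 6 weeks alone, as were, by smaller log2 ratios, Proz (0.41), Cpb2 (0.40), Kng1 (0.40) and F9 (0.37). C6, C9, C8g and Mbl1 were lower there, and Mbl2 was lower at both ages. Of the 34, 24 were above WT at 6 weeks and 10 below, and 15 were above after quantile normalization.

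**Figure D1:**
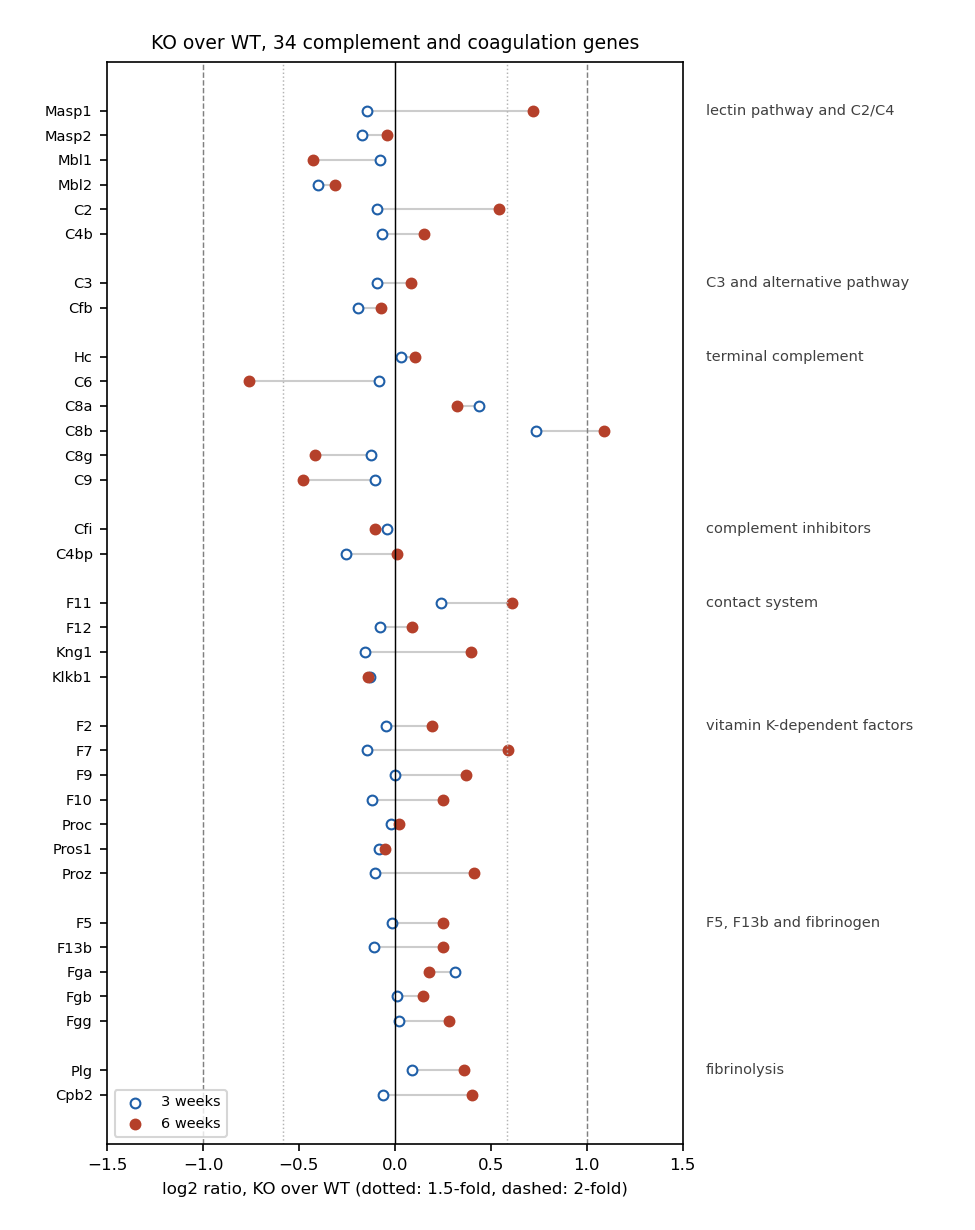
The log2 ratio of KO over WT is plotted on the x axis for each of the 34 genes, listed by role, with open blue circles for 3 weeks and filled red circles for 6 weeks; each point compares 1 array with 1 array and has no error bar. The open circles furthest from 0 are those of C8b, C8a, Mbl2 and Fga, followed by C4bp and F11. The filled circles spread from -0.76 for C6 to 1.09 for C8b.

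C8b, C8a and F11 were also the 3 genes of the set that read lowest at 6 weeks against 3 weeks in WT liver. Because they share this pattern, the bases upstream of their starts are shown (RefSeq, GRCm38.p6, up to 250 bases on the gene's own strand, ending just before its outermost start). Capitals mark matches to motifs of liver transcription factors on either strand. The windows are chr4:104766067-104766316 (plus strand) for C8b, chr4:104876488-104876648 (minus strand) for C8a and chr8:45262056-45262281 (minus strand) for F11.
C8b: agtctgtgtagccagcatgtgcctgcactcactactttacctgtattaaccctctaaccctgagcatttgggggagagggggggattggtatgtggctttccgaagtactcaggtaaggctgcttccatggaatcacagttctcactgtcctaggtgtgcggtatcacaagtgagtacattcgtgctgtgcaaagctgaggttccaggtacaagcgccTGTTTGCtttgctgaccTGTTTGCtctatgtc
C8a: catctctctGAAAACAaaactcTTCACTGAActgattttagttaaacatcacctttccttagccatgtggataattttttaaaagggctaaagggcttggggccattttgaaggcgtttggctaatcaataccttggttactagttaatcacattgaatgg
F11: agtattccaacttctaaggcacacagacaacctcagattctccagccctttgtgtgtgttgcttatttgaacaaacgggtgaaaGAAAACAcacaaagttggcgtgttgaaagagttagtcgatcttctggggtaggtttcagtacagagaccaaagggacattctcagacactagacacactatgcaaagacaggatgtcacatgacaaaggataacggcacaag

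In C8b, the forkhead (FOX) motif TGTTTNC matched at 32 to 26 and at 15 to 9 bases before the start. In C8a, the FOX motif matched on the opposite strand at 152 to 146 bases before the start, and the STAT motif TTCNNNGAA matched at 139 to 131. In F11, 1 match to the FOX motif stood on the opposite strand, 142 to 136 bases before the start. FOXA factors maintain hepatocyte gene expression, and STAT3 carries the interleukin-6 signal of the acute phase. Over 300-base RefSeq windows from 250 bases before to 50 after the start, 26 of the 34 genes had an entry. A gene was counted if any of its windows matched, while the share over all was taken per window. A gene with several windows has more chances to match, so the shares are not like for like. TGTTTNC matched in 9 of these 26 genes (34.6%), and in 20.5% of all 32851 windows. The C/EBP motif TTGCNNAA matched in 8 genes (30.8%, and 10.8% of all windows) and TTCNNNGAA in 6 (23.1%, and 8.30%). The interleukin-6 response element core CTGGGAA matched in 5 genes (19.2%, and 11.1%), and the HNF4 motif CAAAGNNCA in 4 (15.4%, and 6.36%). Besides C8b, C8a and F11, the genes with a FOX match were C6, F10, Fga, Fgb, Klkb1 and Pros1. Their WT log2 ratios of 6 over 3 weeks ran from -0.14 (Pros1) to 0.44 (Klkb1 and Fga). Those of C8b, F11 and C8a were -0.86, -0.83 and -0.68. A part of the motif in the age pattern was not tested. All motifs were searched on both strands, and a match is a description of the letters and not a bound site.

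The 3 C8 genes encode the chains of one protein, C8, which inserts into the membrane ahead of C9; C8b carries the beta chain, and C8a and C8g the alpha and gamma chains. The C8b signal was 8.30 in WT and 13.8 in KO at 3 weeks, and 4.57 in WT and 9.72 in KO at 6 weeks. Both KO arrays lay above both WT arrays. Its log2 ratio of KO over WT was 0.74 at 3 weeks and 1.09 at 6 weeks. By brightest probes, C8b was the only one of the 34 past 2-fold between KO and WT of 1 age or between the ages of 1 genotype. Over all genes, 6.49% were at least 2-fold higher in KO at 6 weeks and 4.54% at least 2-fold lower, against 1 and 0 of the 34. At 3 weeks the shares were 2.86% higher and 2.90% lower, against 0 and 0 of the 34.

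C8a and C8b lie 11.1 kb apart on chromosome 4, with C8b at 104766317 to 104804548 and C8a at 104815679 to 104876487 (GRCm38.p6), and their 3′ ends face each other. The C8a signal was 7.29 in WT and 9.89 in KO at 3 weeks, and 4.55 in WT and 5.69 in KO at 6 weeks. KO was thus above WT at each age, with log2 ratios of 0.44 and 0.32, but the KO array at 6 weeks lay below the WT array at 3 weeks. A second C8a probe gave larger ratios of 0.66 and 0.60, and for 6 over 3 weeks -0.96 in WT and -1.02 in KO. C8g, which lies on chromosome 2, did not follow them. Its signal was 73.2 in WT and 67.0 in KO at 3 weeks, and 100 in WT and 74.99 in KO at 6 weeks, which left the WT 6-week array above the other three. The C8g log2 ratio was -0.13 at 3 weeks and -0.42 at 6 weeks, and its second probe gave -0.22 and -0.60.

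The other pore proteins in the set are C5, encoded by Hc, and C6 and C9. C6 binds activated C5, and C9 closes the ring of the pore. The C6 signal was 0.461 in WT and 0.435 in KO at 3 weeks, and 0.480 in WT and 0.284 in KO at 6 weeks. The KO 6-week array stood below the other three, which differed little, and the log2 ratio was -0.08 at 3 weeks and -0.76 at 6 weeks. The C9 signal was 0.603 in WT and 0.561 in KO at 3 weeks, and 0.951 in WT and 0.681 in KO at 6 weeks. Here the WT 6-week array stood above the other three, and the log2 ratio was -0.10 at 3 weeks and -0.48 at 6 weeks. Hc had log2 ratios of 0.03 and 0.10, within the spread between spots. Of the 6 pore genes in the set, 3 were above WT and 3 below at each age.

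**Figure D2:**
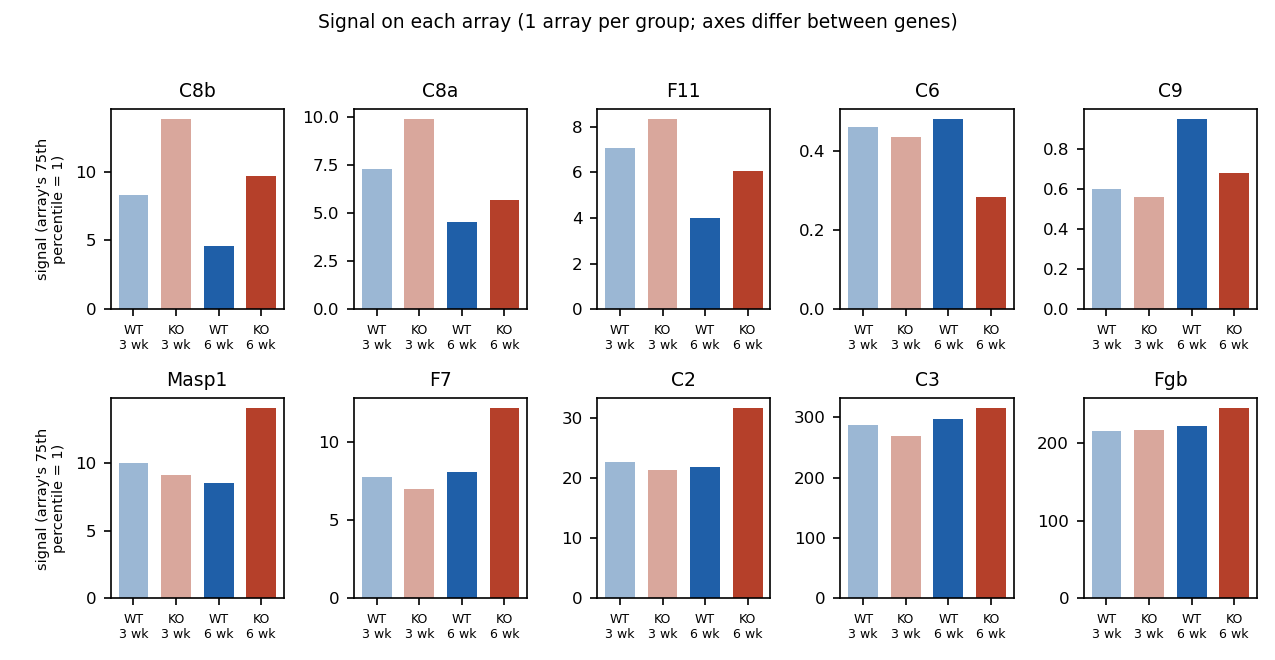
Bars give the signal on each of the 4 arrays (75th percentile of the array = 1, 1 array per group, no error bars) for 10 of the genes, each with its own y axis from 0. C8b is highest on the KO array of each age and C8b, C8a and F11 are lower at 6 weeks than at 3 weeks in both genotypes, Masp1, F7 and C2 are highest on the KO 6-week array alone, C6 is lowest there, and C3 and Fgb differ little.

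In the lectin pathway, Mbl1 and Mbl2 encode the mannose-binding lectins, Masp1 and Masp2 the proteases that travel with them, and C2 and C4b the components that those proteases cleave. All 6 read below WT at 3 weeks, from -0.40 for Mbl2 to -0.07 for C4b on the log2 scale. At 6 weeks 3 were above and 3 below. The Masp1 signal was 10.1 in WT and 9.12 in KO at 3 weeks, and 8.55 in WT and 14.1 in KO at 6 weeks. The KO 6-week array was the high one, and the log2 ratio was -0.14 at 3 weeks and 0.72 at 6 weeks. The C2 signal was 22.7 in WT and 21.3 in KO at 3 weeks, and 21.8 in WT and 31.7 in KO at 6 weeks. C2 again stood out on the KO 6-week array alone, with log2 ratios of -0.09 and 0.54. Both lectin genes were lower in KO, Mbl2 by similar log2 ratios at both ages (-0.40 and -0.31) and Mbl1 more at 6 weeks (-0.08 and -0.42). C4b had log2 ratios of -0.07 and 0.15.

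C2 and Cfb encode related proteases that cut C3 in the classical and lectin pathways and in the alternative pathway, and the genes lie 88 bp apart on chromosome 17. Cfb did not share the C2 difference, with KO over WT at -0.19 on the log2 scale at 3 weeks and -0.07 at 6 weeks. The C3 signal was 287 in WT and 269 in KO at 3 weeks, and 297 in WT and 316 in KO at 6 weeks. The C3 probe is printed at 10 spots, and its log2 ratios were -0.09 ± 0.06 and 0.09 ± 0.09 (SE over spots, which leaves out the spread between pools). The second ratio was -0.07 under quantile normalization. A second C3 probe gave -0.14 and 0.29. The inhibitors Cfi, the protease that inactivates C3b and C4b, and C4bp, its cofactor for C4b, had log2 ratios of -0.04 and -0.26 at 3 weeks and of -0.10 and 0.01 at 6 weeks.

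Among the contact factors, F12, Klkb1 (prekallikrein) and Kng1 (high molecular weight kininogen) start the surface-triggered pathway and F11 passes the signal on to F9. The F11 signal was 7.05 in WT and 8.33 in KO at 3 weeks, and 3.97 in WT and 6.07 in KO at 6 weeks. KO was above WT at each age, by a log2 ratio of 0.24 and 0.61, and both 6-week arrays lay below both 3-week arrays. Klkb1, a close relative of F11 that lies 4.6 kb from it on chromosome 8, went another way. Its signal was 20.3 in WT and 18.5 in KO at 3 weeks, and 27.5 in WT and 25.04 in KO at 6 weeks, so that both 6-week arrays lay above both 3-week arrays, with KO over WT at -0.13 and -0.14. F12 had log2 ratios of -0.08 and 0.09, and Kng1 of -0.16 and 0.40.

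The vitamin K-dependent proteins need gamma-carboxylation by Ggcx to bind membranes; F2, F7, F9 and F10 are procoagulant, Proc and Pros1 anticoagulant, and Proz is the cofactor of an inhibitor of factor Xa. All 7 read at or just below WT at 3 weeks, with log2 ratios from -0.15 (F7) to -0.00 (F9). At 6 weeks 6 of the 7 were above WT, with a median log2 ratio of 0.25, but after quantile normalization 3 were above and 4 below (median -0.00). F7, F9 and Proz stayed above under all 8 alternatives, and F2, F10 and Proc did not. The F7 signal was 7.78 in WT and 7.03 in KO at 3 weeks, and 8.11 in WT and 12.2 in KO at 6 weeks. F7, which starts clotting together with tissue factor, was thus high on the KO 6-week array alone, with log2 ratios of -0.15 and 0.59. A second F7 probe gave -0.20 and 0.65. F7, F10 and Proz follow each other on chromosome 8 with gaps of 1.5 and 3.9 kb, and their log2 ratios were -0.15, -0.12 and -0.11 at 3 weeks and 0.59, 0.25 and 0.41 at 6 weeks. F9 (0.37) and F2 (0.20) were above WT at 6 weeks, whereas Proc (0.02) and Pros1 (-0.05) were close to it.

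F5 is the cofactor of factor Xa, F13b the carrier of the enzyme that crosslinks fibrin, and Fga, Fgb and Fgg the 3 chains of fibrinogen, which lie together on chromosome 3 with gaps of 11.1 and 8.6 kb. The Fgb signal was 215 in WT and 216 in KO at 3 weeks, and 221 in WT and 245 in KO at 6 weeks. The Fgg signal was 184 in WT and 187 in KO at 3 weeks, and 195 in WT and 238 in KO at 6 weeks. In both chains 3 arrays were close together and the KO 6-week array was the highest, with log2 ratios at 6 weeks of 0.15 for Fgb and 0.28 for Fgg, which quantile normalization brought to 0.00 and 0.09. The Fga signal was 26.5 in WT and 32.9 in KO at 3 weeks, and 35.9 in WT and 40.6 in KO at 6 weeks, log2 ratios of 0.31 and 0.18. The Fga ratio at 3 weeks depended on the probe, since a second probe read 11.2 in WT and 8.59 in KO, a log2 ratio of -0.38. F5 and F13b each had a log2 ratio of 0.25 at 6 weeks, after -0.02 and -0.11 at 3 weeks. In fibrinolysis, Plg (plasminogen) had log2 ratios of 0.09 and 0.36, and Cpb2, which slows clot lysis, of -0.06 and 0.40.

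Across the set, the median log2 ratio of KO over WT was -0.08 at 3 weeks, with 8 genes above 0 and 26 below, against a median of 0.00 over all 21758 genes tested at that age. At 6 weeks it was 0.16, with 24 above and 10 below, against 0.05 over all 21386 genes. Coagulation and fibrinolysis genes were mostly above WT at 6 weeks (16 of 18, median 0.25), while complement genes were split (8 of 16, median -0.02). After quantile normalization 11 of 18 and 4 of 16 were above WT, with medians of 0.12 and -0.18. The difference between the cascades was not tested. The level of the 6-week median depended on the scaling. It was -0.00 after quantile normalization, with 15 genes above 0, and -0.03 after normexp background correction and quantile normalization, with 16 above 0. Genes as bright as the median member (473 genes) had a median of 0.20 at 6 weeks and -0.01 at 3 weeks, and the hepatocyte markers of 0.18 and -0.04. Past 1.5-fold, 1 of the 34 was higher and 0 lower at 3 weeks, against 5.05% and 5.48% of all genes. At 6 weeks 4 were higher (C8b, Masp1, F11 and F7) and 1 lower (C6), against 12.4% and 10.4% of all genes. By scaling, the 6-week counts ran from 2 to 4 higher and from 1 to 2 lower.

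**Figure D3:**
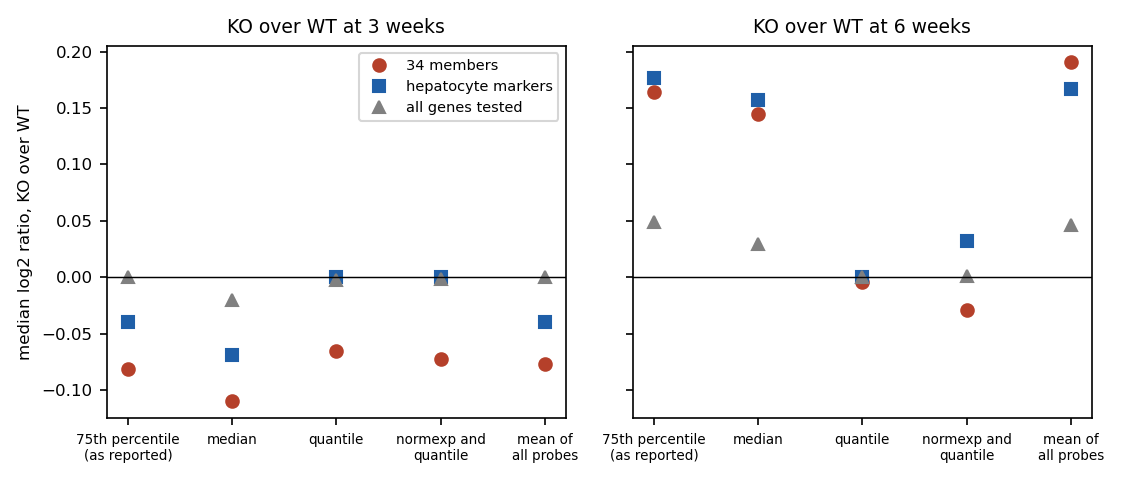
The median log2 ratio of KO over WT (y axis) is plotted for the 34 genes (red circles), the hepatocyte markers (blue squares) and all genes tested (grey triangles) under 5 ways of scaling or combining the probes (x axis), at 3 weeks on the left and 6 weeks on the right. At 6 weeks the red circles lie at 0.16 as reported and at -0.00 and -0.03 under the settings with quantile normalization, and the blue squares move with them.

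The age comparison asks how the same genes differed between 6 and 3 weeks of life. It uses the same 4 arrays as the KO over WT comparisons, so the ratios are not independent of those above. In WT liver the median log2 ratio of 6 over 3 weeks was 0.05, with 22 genes above 0 and 12 below. C8b (-0.86), F11 (-0.83) and C8a (-0.68) were lowest, and C9 (0.66), C8g (0.45), Klkb1 (0.44) and Fga (0.44) were highest. None of the 34 reached 2-fold, against 3.64% of all genes higher and 5.85% lower. Past 1.5-fold, 1 was higher and 3 were lower, against 8.19% and 10.8% of all genes.

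In KO liver the median log2 ratio of 6 over 3 weeks was 0.28, with 27 genes above 0. After quantile normalization it was 0.03 and 19 genes were above 0, and 23 of the 34 kept their direction under all 8 alternatives tried. C8a (-0.80), C6 (-0.62), C8b (-0.51) and F11 (-0.46) were lowest, and F7 (0.80), Masp1 (0.63) and C2 (0.57) were highest. C8a, C8b and F11 were lower at 6 weeks in both genotypes under every scaling tried. None reached 2-fold, against 6.02% of all genes higher and 6.26% lower. Past 1.5-fold, 2 were higher and 2 lower, against 13.3% and 13% of all genes. The highest of the 4 signals fell on the KO 6-week array for 19 of the 34 genes (55.9%), against 39.1% of all genes, and the lowest fell on the KO 3-week array for 20 of the 34 (58.8%), against 24.7% of all genes.

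**Figure D4:**
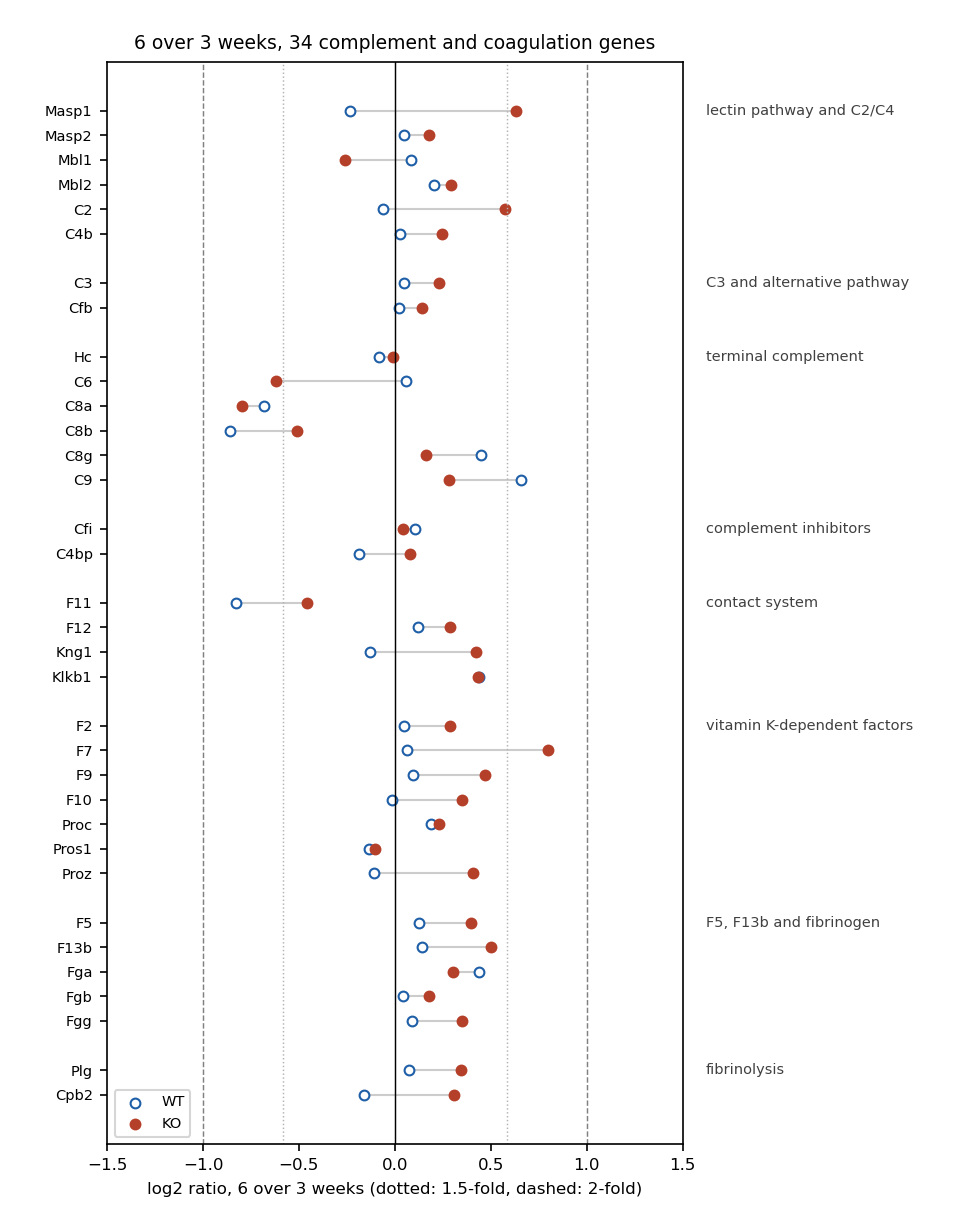
The log2 ratio of 6 over 3 weeks is plotted on the x axis for each of the 34 genes by role, with open blue circles for WT and filled red circles for KO, 1 array against 1 array with no error bar. C8a, C8b and F11 lie left of 0 in both genotypes, C6 in KO alone, and F7, Masp1 and C2 lie furthest right in KO.

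The KO over WT ratio at 6 weeks minus that at 3 weeks had a median of 0.20 over the 34 genes, with 26 above 0, and of 0.06 over all 18871 genes tested. The 473 genes as bright as the median member had a median of 0.20. After quantile normalization the median of the 34 was 0.01 and 18 were above 0. Masp1 (0.87), F7 (0.74) and C2 (0.63) had the largest positive differences and C6 (-0.68) the largest negative one. None of the 34 reached 2-fold in this difference, against 4.08% of all genes upward and 3.46% downward, and 3 and 1 reached 1.5-fold, against 10.6% and 9.45%. C8b (0.35) and F11 (0.37) had larger KO over WT ratios at 6 weeks, and C8a (-0.12) a smaller one. No residual degree of freedom is left to test these differences.

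An additive limma fit of genotype and age over all 4 arrays, which leaves 1 residual degree of freedom, called 0 of 22648 genes (0%) and 0 of the 34 for either term after Benjamini-Hochberg adjustment. Before adjustment, 1007 genes (4.45%) were under 0.05 for genotype and 2308 (10.2%) for age. Of the 34, C8b alone was among the former, and C8a and C8b were among the latter. C8b had a log2 genotype effect of 0.91 ± 0.18 (SE), with a limma adjusted p of 0.914. The log2 age effect was -0.74 ± 0.15 (SE) for C8a, with a limma adjusted p of 0.456, and -0.69 ± 0.18 (SE) for C8b, with one of 0.487. F11 had a log2 age effect of -0.64 ± 0.18 (SE) and a limma adjusted p of 0.492. The smallest limma adjusted p over all genes was 0.468 for genotype and 0.399 for age.

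Several genes had more than 1 probe, and the probes did not always read alike. The 34 genes had 47 probes, and the 13 probes other than the brightest, from 11 genes, gave the same sign as the brightest for 8 at 3 weeks and 10 at 6 weeks. For Masp1, the probe reported above (GenBank D16492) and that of NM_008555 gave log2 ratios at 6 weeks of 0.72 and 0.81. Another Masp1 probe, that of AB049755, annotated as the MASP-3 transcript, gave -0.30. Masp1 makes both MASP-1 and MASP-3 by alternative splicing, with different protease domains. Masp2 also makes 2 products, the MASP-2 protease and a short protein without the protease domain. Which product each Masp2 probe reads was not established, so the brightest probe may not read the protease. That probe (NM_010767, at chr4:147978456-147978515 in mm9) gave -0.04 at 6 weeks and another of the same transcript gave 0.07. The probe of the other Masp2 transcript (NM_001003893) lies downstream of both on the plus strand, at chr4:147989478-147989537 in mm9. Its signals were 0.780 and 0.793 at 3 weeks and 0.643 and 1.37 at 6 weeks in WT and KO. Its log2 ratio at 6 weeks was 1.09. This was as large as the C8b ratio and was chosen for mention after its value was seen.

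**Figure D5:**
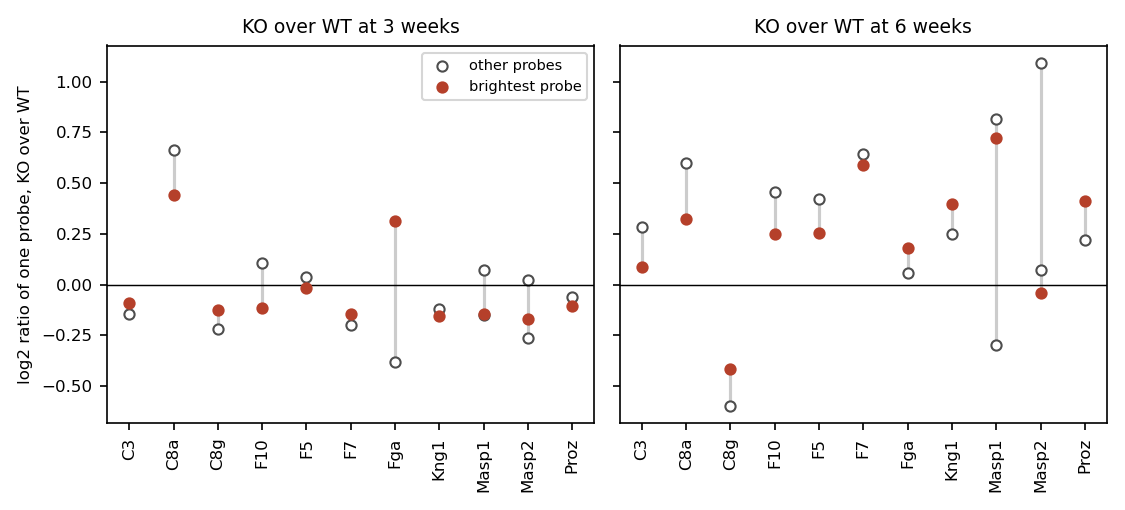
The log2 ratio of KO over WT (y axis) is plotted for each probe of the 11 genes with several probes (x axis), at 3 weeks on the left and 6 weeks on the right, with filled red circles for the brightest probe and open circles for the others. The probes of Fga lie apart at 3 weeks (0.31 and -0.38) and those of Masp1 and Masp2 at 6 weeks, where 1 Masp2 probe reaches 1.09.

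The rest of the pathway was described from a list of 61 further genes, of which 58 were on the array. At 6 weeks 3 of 57 tested were at least 2-fold higher in KO and 1 lower, and the median log2 ratio of the list was 0.01 at 3 weeks and 0.06 at 6 weeks. The 4 genes past 2-fold at 6 weeks (C5ar1, F13a1, Serpina5 and F2rl1) were each not well above background on 1 of the 2 arrays. The antithrombin gene Serpinc1 stayed near WT (-0.05 and 0.10). Ggcx, the carboxylase of the vitamin K-dependent factors, had log2 ratios of -0.13 and -0.59.

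Acute phase proteins, regulators of liver transcription and markers of other cells were read on the same arrays. In a list of 20 acute phase genes, the 6-week KO array was above WT by 2-fold or more for 7 and below it by as much for 0, with a median log2 ratio of 0.86. At 3 weeks these counts were 0 and 2, with a median of 0.06. Saa2 had log2 ratios of 0.93 and 4.48, Saa1 of 0.79 and 4.44, Mt2 of 0.55 and 3.81 and Mt1 of 0.44 and 2.70. These 4 were picked among genes with the same direction at both ages. The orosomucoid genes Orm1 (-1.17 and 0.84), Orm2 (-1.09 and 0.98) and Orm3 (-0.86 and 2.90) were below WT at 3 weeks and above it at 6 weeks. Of 24 regulators, 0 passed 2-fold at 3 weeks, and of 23 tested at 6 weeks 2 were higher (Cebpd, 1.36, and Il6ra, 1.24). By the naming rule, Il1r1 had log2 ratios of 0.36 and 0.81, Cebpd of 0.35 and 1.36, Onecut1 of -0.47 and -0.20 and Ppara of 0.10 and 0.45. The liver factor Hnf4a stayed near WT (0.08 and 0.10). Macrophage markers had a median of -0.07 at 3 weeks and -0.86 at 6 weeks, with 3 of 9 at least 2-fold lower at 6 weeks and summed signals of 80.8 (WT) and 74.1 (KO) at the younger age and 72.9 (WT) and 42.3 (KO) at the older. Stellate cell markers had medians of 0.12 and -0.64, and endothelial markers of 0.12 and -0.42. The part of these markers in the values of the 34 genes was not tested.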

How the data were processed

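RNA of 4 liver pools was hybridised to Agilent one-colour arrays, and the submitters' processing notes name Agilent Feature Extraction, version 11.5.1.1. The deposited scanner files hold processed signals as intensity per spot with flags (other codes) for background, saturation and outliers, per the file headers; probe positions are on mm9. The authors' deposited value table is a ratio, the processed signal over the array's 75th percentile, as its match to the computed ratio (0.99983 to 0.99998) showed; its column medians were 0.0797, 0.0815, 0.0778 and 0.0798, and the values are linear, uncentred and signed as given. The number of arrays limits the precision.

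For each of 4 arrays, log2 of the signal was taken minus log2 of the 75th percentile of 43020 non-control spots. Outlier spots (189 to 252 per array, none of the 34 genes) were left out, spots of a probe averaged, and the brightest probe of a gene used. Of 39429 probes, 27464 were named by accession, 3541 by symbol and 404 by synonym through RefSeq (GRCm38.p6), and 7973 kept the name in the files. A gene was tested in a comparison if well above background on 1 array or more; where 1 was dim, its floor was the lowest well-above-background signal. From 28714 to 30697 spots per array were well above background and 0 saturated. Single comparisons have no test and were counted at 2-fold and 1.5-fold. The additive fit used limma 3.58.1 in R 4.3.3, with an adjusted p under 0.05 as the threshold. Scripts were tested on simulated data.

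All 34 genes are named, with 4-array values for those past 1.5-fold in KO over WT, the 3 largest differences with age in each direction, fibrinogen chains and C3; of other pathway genes those past 2-fold and well above background on both arrays, and of acute phase genes and regulators up to 4 by the smaller of their ratios, among those with the same direction at both ages. Others named (Serpinc1, Ggcx, Il6ra, Hnf4a, Orm1, Orm2, Orm3, Mbl1, Mbl2, the probes) were picked after their values were seen. Members and lists were chosen with earlier results of these data known, and the motif, Y-linked and further lists were chosen after seeing the data. Results on some other genes and motifs are not reported here. Alternatives were other background corrections, normalizations, filters, probe rules and thresholds.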

Additional observations from a re-analysis of the deposited data

Results flagged for a closer look

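In 16 of the 34 genes the KO array lay below WT at 3 weeks and above it at 6 weeks, and in 3 of them the KO over WT ratios differed by more than 1.5-fold between the ages. Each such difference rests on 1 array per group and was not tested. The share of all genes with such a change of sign was not counted. At 3 weeks 23.5% of the 34 were above WT, against 49.1% of all genes tested, and at 6 weeks 70.6%, against 55.5%. After quantile normalization 15 of the 34 were above WT at 6 weeks. The 6-week signs of C4b, C3, C4bp, F12, F2, F10 and Proc, all among the 16, were not kept under every alternative. Masp1 differed by 0.87 on the log2 scale (-0.14 at 3 weeks and 0.72 at 6 weeks), and across the alternatives by 0.49 to 0.88. F7 differed by 0.74 (-0.15 and 0.59), and across the alternatives by 0.64 to 0.79. C2 differed by 0.63 (-0.09 and 0.54), and across the alternatives by 0.49 to 0.64. The spread between spots of one probe came to an SD of 0.15 for such a difference of ratios, which leaves out the spread between pools.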

How the results depend on the processing

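Lowering the threshold from 2-fold to 1.5-fold raised the number of the 34 genes past it to 1 at 3 weeks, 5 at 6 weeks, 4 with age in WT, 4 with age in KO and 4 for the difference between the KO effects, and at 3-fold the count at 6 weeks was 0. The median log2 ratio at 6 weeks (0.16) was -0.0047 with quantile normalization and -0.0291 with normexp and quantile normalization. The median with age in KO (0.28) was 0.0301 and 0.0178, and that of the difference between the KO effects (0.20) was 0.0087 and 0.0008; the cause was not tested. Without a filter on dim genes, the median of all genes at 6 weeks was 0.14. Over 8 alternatives the sign was kept by 30 of 34 genes at 3 weeks, 24 at 6 weeks, 28 with age in WT, 23 with age in KO and 22 for the difference, and by every gene past 1.5-fold in each. C8b at 6 weeks ran from 1.05 to 1.09, F11 from 0.58 to 0.61, F7 from 0.49 to 0.62, Masp1 from 0.41 to 0.72 and C6 from -0.78 to -0.62. The main limit is 1 array per group. No paired analysis was possible because each group is 1 array and the labels carry no replicate numbers, and the single slide leaves no slide block.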

Other observations

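Other genes of the same pathway, singled out after their values were seen, differed at 6 weeks alone. The C1q chains C1qa (-0.79), C1qb (-0.65) and C1qc (-0.70), which macrophages make for the classical pathway, had lower signals in KO, as had the ficolin Fcna (-0.84), properdin Cfp (-0.68) and the collectins Colec10 (-0.70) and Colec11 (-0.61). These are log2 ratios of KO over WT, and the ratios of the same genes at 3 weeks lay between -0.11 (Fcna) and 0.09 (Colec11). On the same array the macrophage markers had a median log2 ratio of -0.86, the stellate cell markers, which include Colec10, of -0.64 and the endothelial markers of -0.42, and their part in these values was not tested. The hepatocyte proteins histidine-rich glycoprotein (Hrg, 0.80), hepassocin (Fgl1, 0.80) and the second kininogen (Kng2, 0.53) were higher in KO at 6 weeks, after 0.05, -0.03 and -0.06 at 3 weeks.

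Sex-patterned and clock genes also differed between the pools. At 3 weeks the KO signal was lower by 2-fold or more for 8 and higher for 0 of 14 female-biased genes (median log2 ratio -1.23), and higher for 5 and lower for 0 of 14 male-biased genes (median 0.59). At 6 weeks 5 of 14 female-biased genes were lower and 1 higher (median -0.43), and 4 of 15 male-biased genes were higher and 1 lower (median 0.06). Also at 6 weeks, 7 of 14 clock genes were higher by 2-fold or more in KO and 2 lower (median 1.03), against 0 and 1 at 3 weeks. The labels give neither the sex of the pooled mice nor the hour of sampling, and the part of either in the 34 genes was not tested.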
